A study of Mus musculus with 12 samples.

Results

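The 10 guide strands of the miR-17-92, miR-106b-25 and miR-106a-363 clusters were followed in mouse quadriceps, a thigh muscle, from birth to adulthood. They were chosen by name, as the strands known to be loaded from each hairpin, out of 1966 mature mouse miRNAs in the count table, and all 10 passed the filter on low counts that left 809 miRNAs for testing. Small RNAs were sequenced from wild-type C57BL/6J mice at postnatal days 1, 5, 14 and 90 (P1, P5, P14 and P90), with 3 libraries per age and 1 mouse per library. Age was the only difference between the 4 groups that the sample titles give, and no allele or treatment was involved. The RNA came from whole muscle, which holds fibres, satellite cells, vessels, blood and connective tissue.

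A miRNA is cut from a hairpin of a longer primary transcript, and 1 arm of the hairpin, the guide strand, is usually kept by Argonaute to pair with target mRNAs through its seed, here bases 2 to 8. The 3 clusters are copies of an ancestral unit, and each hairpin array is transcribed as a single RNA. They are known for promoting proliferation and survival of dividing cells, through targets that include the cell cycle inhibitor p21 and the pro-apoptotic protein BIM, and MYC and E2F factors are known to drive their host genes. In muscle they are studied mainly in proliferating myoblasts.

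The 10 mature sequences are printed 5′ to 3′ from RefSeq (GRCm38.p6) because the seeds, in capitals, sort the members into 4 families that cut across the clusters, and because their base composition bears on the results.
mmu-miR-17-5p: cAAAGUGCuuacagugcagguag
mmu-miR-20a-5p: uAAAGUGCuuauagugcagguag
mmu-miR-106b-5p: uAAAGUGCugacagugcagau
mmu-miR-93-5p: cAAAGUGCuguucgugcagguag
mmu-miR-18a-5p: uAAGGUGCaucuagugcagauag
mmu-miR-19a-3p: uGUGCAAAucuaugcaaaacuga
mmu-miR-19b-3p: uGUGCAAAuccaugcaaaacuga
mmu-miR-92a-3p: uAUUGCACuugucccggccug
mmu-miR-25-3p: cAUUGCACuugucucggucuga
mmu-miR-363-3p: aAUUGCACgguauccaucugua
The AAAGUGC seed had 4 members, AUUGCAC had 3, GUGCAAA had 2 and AAGGUGC had 1. miR-19a-3p and miR-19b-3p differed only by U11C, counted from the 5′ end, and miR-17-5p differed from miR-20a-5p by C1U and C12U. GC content ran from 34.8% in miR-19a-3p, through 39.1% in miR-20a-5p and miR-19b-3p, 40.9% in miR-363-3p, 42.9% in miR-106b-5p, 43.5% in miR-18a-5p, 47.8% in miR-17-5p, 50% in miR-25-3p and 52.2% in miR-93-5p, to 57.1% in miR-92a-3p.

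The 6 hairpins of the miR-17-92 cluster spanned 836 bases at chr14:115043671-115044506 on the plus strand (GRCm38.p6). They lie in Mir17hg, the host transcript of the cluster, where GENCODE places each hairpin in an exon of 1 or 2 transcripts and in an intron of 4. The miR-106b-25 cluster spanned 498 bases at chr5:138165321-138165818 on the minus strand, within introns of 18 transcripts of Mcm7, which encodes a subunit of the replicative helicase. miR-25 and miR-93 were also exonic in 1 Mcm7 transcript. The X chromosome hairpins of the members lay at chrX:52741693-52742066 on the minus strand, in an intron of 5 Kis2 transcripts. Identical miR-19b-3p and miR-92a-3p sequences are also made from the X cluster, so their counts could come from either locus, whereas miR-363-3p is made from the X locus.

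Each library held between 20363495 and 53126984 miRNA counts, so counting error was small for most members. It was larger for miR-19a-3p (35 to 789 counts) and miR-363-3p (16 to 181 counts), and for miR-18a-5p at P90 (90 to 167 counts). miR-1a-3p, the muscle-specific miRNA, took between 22.2 and 26.8% of all counts at P1, between 28.8 and 30.8% at P5 and between 16 and 22.8% at P14, which grew to between 53 and 56.8% in the adult muscle. Levels below are CPM, counts scaled to a common library total after each total was multiplied by its TMM factor, which is set so that a trimmed mean of the log ratios between libraries is 0. That factor was 1.235 to 1.725 at P1, P5 and P14 but 0.2469 to 0.3841 at P90, so comparisons with P90 depend on the scaling and are given below with 4 other scalings. The row of miR-1b-5p, not in the shares above, was also large, at 692751 CPM in P90 replicate 1 beside 1379140 for miR-1a-3p. The tissue label was borne out by its markers, since all 4 miRNAs of the muscle list (miR-1a-3p, miR-133a-3p, miR-133b-3p and miR-206-3p) were detected in every library.

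Together the 10 members took 0.575% ± 0.0656 (SD, n = 3) of all counts at P1, 0.418% ± 0.0258 at P5, 0.57% ± 0.0882 at P14, followed by 0.0828% ± 0.0205 at P90. After TMM scaling their summed level was 3639 ± 144 CPM at P1, 3276 ± 152 at P5, 3671 ± 197 at P14, against 2507 ± 84.1 at P90. The summed level was lowest at P90 on both scales. Under another scaling, by upper-quartile factors, the most abundant members were higher at P90 than at P1. On the log2 scale miR-92a-3p then differed by 1.39, miR-25-3p by 1.17 and miR-93-5p by 2.00. So the direction as well as the size of the difference at P90 depended on the scaling. The AUUGCAC family carried most of the members' counts, 70.6% ± 2.69 at P1 and 69.8% ± 2.14 at P90. The GUGCAAA family carried 3.05% ± 0.261 at P1 and 0.628% ± 0.163 at P14, and miR-18a-5p carried 3.07% ± 0.461 at P1 and 0.321% ± 0.0302 at P90.

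In the miR-17-92 cluster the mature strands spanned a wide range of levels although they share a primary transcript. miR-17-5p, a founding member of the AAAGUGC family, had 145, 148 and 155 CPM in the 3 P1 libraries, 119, 129 and 133 at P5, 108, 96.8 and 92.3 at P14 and then 51.9, 49.9 and 60.8 at P90. No 2 ages overlapped, and each later age was lower. miR-18a-5p, whose seed differs from that family at a single base, had 110, 98.6 and 125 CPM at P1, 88.4, 88.4 and 89.6 at P5, 30.2, 23.2 and 29.8 at P14, followed by 7.73, 8.85 and 7.5 at P90. Its ages did not overlap either, and it reached P90 with 130, 167 and 90 counts against 4165, 4273 and 5236 counts at P1. miR-20a-5p, the member nearest to miR-17-5p in sequence, had 92.5, 88.2 and 104 CPM at P1, 80, 77.5 and 94.8 at P5, 35.2, 28 and 36.2 at P14, against 41.4, 42.1 and 44.2 at P90. It was lowest at P14, with every P90 library above every P14 library.

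The GUGCAAA pair was also low at P14. miR-19a-3p had 18.5, 11.8 and 18.8 CPM at P1, 14.2, 13.3 and 13.7 at P5, 2.53, 1.45 and 2.13 at P14 and then 2.08, 4.61 and 4.25 at P90. miR-19b-3p had 90.8, 93.8 and 98.7 CPM at P1, 75.1, 78.7 and 75.7 at P5, 21.1, 16.2 and 25.1 at P14, followed by 24.3, 32.2 and 35.3 at P90. All 3 P14 libraries lay far below the P5 level for both, and the P14 and P90 ranges overlapped for both. miR-92a-3p, the most abundant member, went the other way at P14. It had 1810, 2021 and 1806 CPM at P1, 1541, 1687 and 1565 at P5, 2080, 2409 and 2020 at P14, against 1418, 1319 and 1257 at P90, so that P14 was above P5, P90 was below every other age, and P1 overlapped only P14.

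The miR-106b-25 cluster lies within Mcm7, a gene transcribed in replicating cells. miR-106b-5p had 114, 102 and 135 CPM at P1, 113, 127 and 140 at P5, 75, 52.9 and 67.9 at P14 and then 77.6, 105 and 104 at P90. miR-93-5p had 492, 467 and 493 CPM at P1, 464, 527 and 609 at P5, 678, 601 and 597 at P14, followed by 515, 539 and 509 at P90. miR-25-3p had 678, 772 and 617 CPM at P1, 606, 621 and 653 at P5, 696, 602 and 581 at P14, against 454, 394 and 406 at P90. miR-106b-5p was lowest at P14, miR-93-5p stayed within 464 to 678 CPM at all ages, and miR-25-3p was lower at P90 than in any younger library. miR-363-3p from the X cluster was the rarest member, at 2.81, 3.18 and 4.31 CPM at P1, 0.844, 1.87 and 1.27 at P5, 0.826, 1.85 and 1.78 at P14 and then 4.22, 1.17 and 1.33 at P90. A single P90 library carried the high value.

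**Figure D1:**
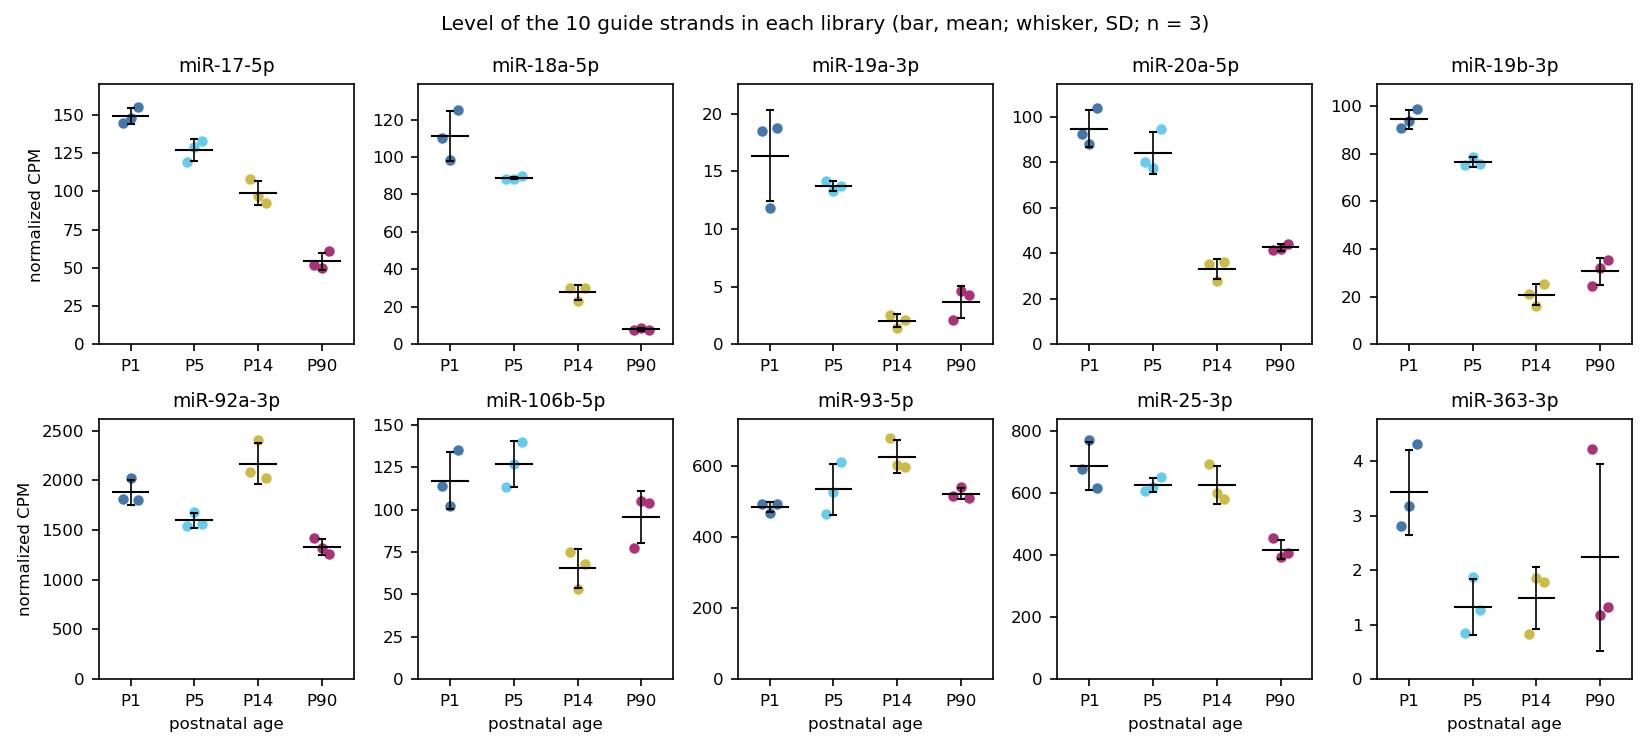
Level of each guide strand (CPM after TMM scaling, linear axes from 0) by postnatal age; points are libraries, bars the mean and whiskers the SD over 3 libraries. miR-18a-5p fell from 111 CPM at P1 to 8.03 at P90, miR-19a-3p, miR-20a-5p, miR-19b-3p and miR-106b-5p were lowest at P14, and miR-92a-3p was highest there (2170 CPM).

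The order of the members was much the same at all ages. miR-92a-3p stood first, miR-25-3p and miR-93-5p followed (their ranges overlapped at P5 and P14, and miR-93-5p stood above miR-25-3p at P90), and miR-19a-3p and miR-363-3p stood last. In the middle of the order at P1, miR-106b-5p, miR-18a-5p, miR-20a-5p and miR-19b-3p each overlapped with the next. By P90 the neighbours from miR-92a-3p down to miR-19a-3p no longer overlapped. From P1 to P90 miR-18a-5p had dropped from rank 201 of the 809 miRNAs to rank 310, and miR-19a-3p from rank 316 to rank 377. All other members had moved up in rank, among them miR-93-5p from 114 to 73 and miR-92a-3p from 59 to 48. This held also for members with a lower CPM at P90, such as miR-17-5p (181 to 167) and miR-20a-5p (209 to 178). These levels compare reads per miRNA, and mature miRNAs have nearly the same length. Ligation and PCR can favour some sequences, so the order between members is less certain than changes of 1 member between libraries.

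The question the ages address is which of these strands follow the maturation of the muscle. With the edgeR quasi-likelihood test over all 4 ages, 8 of the 10 members differed at a Benjamini-Hochberg adjusted p under 0.05, against 72.4% of all miRNAs tested. The share of members was close to that background. miR-93-5p (adjusted p = 0.0839) and miR-363-3p (adjusted p = 0.053) did not pass. In whole muscle, fewer cells of a type and less RNA per cell cannot be told apart in any of these differences.

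Between P1 and P5 no member passed, lower or higher, where 1.73% of all miRNAs tested were called lower and 2.72% higher. At an unadjusted p under 0.05 edgeR counted 1 member lower and 0 higher, and DESeq2 called 0 in either direction. The libraries of 5 members did not overlap between the ages, beside 32.5% of all miRNAs tested. These 5 were lower at P5, but the log2 differences of miR-17-5p, miR-18a-5p, miR-19b-3p and miR-92a-3p were only −0.23, −0.32, −0.30 and −0.23. miR-363-3p had the largest estimate, −1.37 ± 0.48 (SE), with an adjusted p of 0.135.

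The step from P5 to P14 split the members. By edgeR, 6 of the 10 were lower at P14, against 26.3% of all miRNAs tested, and 1 was higher, against 18%. miR-19a-3p fell by 2.75 on the log2 scale (SE 0.30, edgeR adjusted p = 3.11e-06), miR-19b-3p by 1.88 (SE 0.19, adjusted p = 1.1e-06), miR-18a-5p by 1.68 (SE 0.16, adjusted p = 7.81e-07) and miR-20a-5p by 1.34 (SE 0.16, adjusted p = 5.65e-06). miR-106b-5p fell by 0.95 (SE 0.18, edgeR adjusted p = 0.0005). The smallest of the called falls was that of miR-17-5p, −0.36 ± 0.14 (adjusted p = 0.0462), and it was lost without P1 replicate 3, P5 replicate 2, P5 replicate 3, P14 replicate 2 or P14 replicate 3 (adjusted p up to 0.119), with library totals (−0.08) or upper-quartile factors (−0.08), and with no filter or with these 2 ages alone (adjusted p = 0.0568 and 0.0902). miR-92a-3p rose by 0.44 ± 0.12 (edgeR adjusted p = 0.00642). miR-93-5p (0.23 ± 0.13), miR-25-3p (−0.00 ± 0.13) and miR-363-3p (0.16 ± 0.48) did not pass. The median difference of the members was −0.66, beside −0.07 over all miRNAs tested, and the libraries of 7 members did not overlap, beside 54.4% of all miRNAs tested. The 4 largest falls were those of strands with a hairpin in the miR-17-92 cluster, of which miR-19b-3p also has an X copy, and they lay low among all miRNAs, since 4.82% of tested miRNAs had a lower log2 difference than miR-19a-3p and 18.4% had a lower one than miR-20a-5p.

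The GC content of the miRNAs moved with this step. Over 310 miRNAs of at least 10 CPM, the log2 level rose with GC content by 0.363, 0.543 and 0.366 per 10 percentage points in the 3 P14 libraries, relative to the mean of all 12 libraries, and by −0.022 to 0.065 in the P1 and P5 libraries. At P90 the trend had the opposite sign, −0.354, −0.551 and −0.487. Over the 10 members the log2 difference between P14 and P5 had a correlation of 0.82 with GC content, given as a description of points that share libraries and clusters. With the GC trend removed from each library, the falls from P5 to P14 kept their calls in the same 6 strands, whereas miR-92a-3p was no longer called, at a log2 difference of 0.05 (adjusted p = 0.74). GC content was known for 688 of the 809 miRNAs tested (85%), and what gives rise to the trend was not tested.

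**Figure D2:**
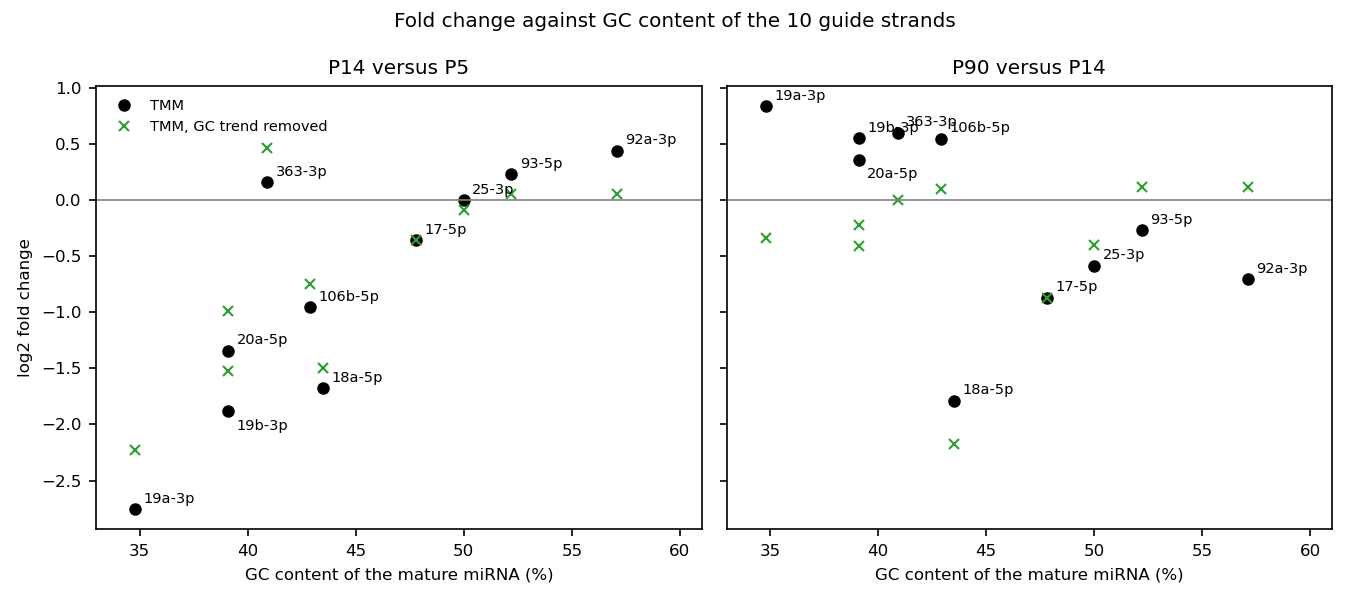
Log2 fold change of the 10 guide strands (vertical axis) against the GC content of the mature sequence in percent (horizontal axis), for P14 versus P5 and P90 versus P14; circles are the TMM fit and crosses the fit with the GC trend removed from each library. The AU-rich miR-19a-3p lies lowest at P14 versus P5 (−2.75) and highest at P90 versus P14 (0.84), and with the trend removed it lies at −0.34 in the latter.

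From P14 to P90 members moved in both directions under TMM scaling. By edgeR, 4 members were lower at P90, against 36.7% of all miRNAs tested, and 3 were higher, against 22.4%. Both shares of members were close to that background. miR-18a-5p fell by 1.79 on the log2 scale (SE 0.17, edgeR adjusted p = 1.17e-07), miR-17-5p by 0.87 (SE 0.14, adjusted p = 5.59e-05), miR-92a-3p by 0.70 (SE 0.12, adjusted p = 8.73e-05) and miR-25-3p by 0.58 (SE 0.13, adjusted p = 0.00122). The fall of miR-25-3p was not called with RLE size factors (−0.22, edgeR adjusted p = 0.155), by DESeq2 (−0.23, adjusted p = 0.152) or in a fit of these 2 ages alone (−0.28, adjusted p = 0.0982). The 3 that rose were miR-19a-3p (0.84 ± 0.31, edgeR adjusted p = 0.0276), miR-19b-3p (0.56 ± 0.18, adjusted p = 0.016) and miR-106b-5p (0.55 ± 0.18, adjusted p = 0.016), and miR-20a-5p was at 0.36 ± 0.15 (adjusted p = 0.0569). None of the rises was called without P14 replicate 2, which had the steepest GC trend of the 3 P14 libraries, where the 3 adjusted p-values were 0.103, 0.0681 and 0.0681, and none was called with the GC trend removed, where miR-19a-3p and miR-19b-3p turned to −0.34 and −0.22. The rise of miR-19a-3p was also not called without P90 replicate 2 (adjusted p = 0.128) or P90 replicate 3 (adjusted p = 0.0642). Totals without miR-1a-3p and miR-1b-5p likewise called 0 members higher in this step (144 over all miRNAs). miR-93-5p (−0.26 ± 0.13, adjusted p = 0.0923) and miR-363-3p (0.60 ± 0.49, adjusted p = 0.31) did not pass.

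Across the whole interval, from P1 to P90, edgeR with TMM scaling called 7 members lower, against 41.2% of all miRNAs tested, and 0 higher, against 25.2%. All 6 miR-17-92 strands and miR-25-3p were among the 7. miR-18a-5p fell by 3.79 on the log2 scale (SE 0.18, edgeR adjusted p = 1.47e-11), miR-19a-3p by 2.17 (SE 0.30, adjusted p = 9.38e-06), miR-19b-3p by 1.63 (SE 0.19, adjusted p = 1.06e-06) and miR-17-5p by 1.46 (SE 0.14, adjusted p = 1.44e-07). Smaller falls were those of miR-20a-5p (−1.16 ± 0.16, edgeR adjusted p = 7.27e-06), miR-25-3p (−0.72 ± 0.13, adjusted p = 0.000153) and miR-92a-3p (−0.50 ± 0.12, adjusted p = 0.00153), the last of which was not called without P5 replicate 2 (adjusted p = 0.089), with the GC trend removed (−0.04, adjusted p = 0.767), with RLE size factors (−0.16, adjusted p = 0.279) or by DESeq2 (−0.18, adjusted p = 0.278). miR-106b-5p was at −0.30 ± 0.18 (adjusted p = 0.156), miR-93-5p at 0.11 ± 0.13 (adjusted p = 0.482) and miR-363-3p at −0.61 ± 0.48 (adjusted p = 0.281). miR-106b-5p was called lower with the GC trend removed (−0.55, edgeR adjusted p = 0.00676) and with totals without miR-1a-3p and miR-1b-5p (−0.76, adjusted p = 0.00161), and miR-93-5p was called higher with the GC trend removed (0.32, adjusted p = 0.0412). Without P90 replicate 1, its high library, miR-363-3p was called lower at −1.50 (adjusted p = 0.013), and without P5 replicate 2 miR-93-5p was called higher at 0.34 (adjusted p = 0.0451). At an unadjusted p under 0.05 the count of members higher at P90 stayed at 0, and DESeq2 called 1 higher and 6 lower (258 and 308 over all miRNAs).

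The counts against P90 were set by the scaling. Scaling by library totals alone called 10 members lower at P90 than at P1 and 0 higher, upper-quartile factors called 1 lower (miR-18a-5p) and 7 higher, RLE size factors 6 and 1 (304 and 246 over all miRNAs), and totals without miR-1a-3p and miR-1b-5p 9 and 0 (383 and 165 over all miRNAs). The median log2 difference of all miRNAs moved with them, from −0.72 under TMM to −2.97 under totals and 1.177 under upper-quartile factors, and so did the split of calls over all miRNAs, from 333 lower and 204 higher to 647 and 36 or 192 and 391. Between P90 and P14 the split over all miRNAs went from 297 and 181 to 628 and 18 or 159 and 382. Between P14 and P5 it went from 213 and 146 to 160 and 183 or 165 and 207, and the members' counts there were 5 lower and 2 higher under either of these scalings.

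A scaling shifts all miRNAs of a library alike, so the distance of a member from the median miRNA is nearly fixed by construction and describes the member apart from the scaling. Relative to that median, over the 5 scalings, miR-18a-5p at P90 versus P1 lay at −3.18 to −3.07 on the log2 scale, miR-19a-3p at −1.56 to −1.45, miR-19b-3p at −1.03 to −0.91, miR-17-5p at −0.87 to −0.75 and miR-20a-5p at −0.56 to −0.44. On the other side of the median lay miR-92a-3p at 0.11 to 0.22, miR-106b-5p at 0.30 to 0.42 and miR-93-5p at 0.71 to 0.82, with miR-25-3p at −0.12 to −0.01. Removing the GC trend moved some of these distances, since the median was then −0.592, miR-106b-5p at −0.55 and miR-92a-3p at −0.04. Under TMM, 22% of all miRNAs tested had a lower log2 difference than miR-18a-5p, 40.7% than miR-17-5p, 52.9% than miR-92a-3p and 62.2% than miR-93-5p. miR-18a-5p was the only member called lower at P90 than at P1 under each of the 5 scalings. From P5 to P14, 5 members were called lower under each of the 5 scalings (miR-18a-5p, miR-19a-3p, miR-20a-5p, miR-19b-3p and miR-106b-5p), miR-18a-5p at −1.75 to −1.40 and miR-106b-5p at −1.03 to −0.67.

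**Figure D3:**
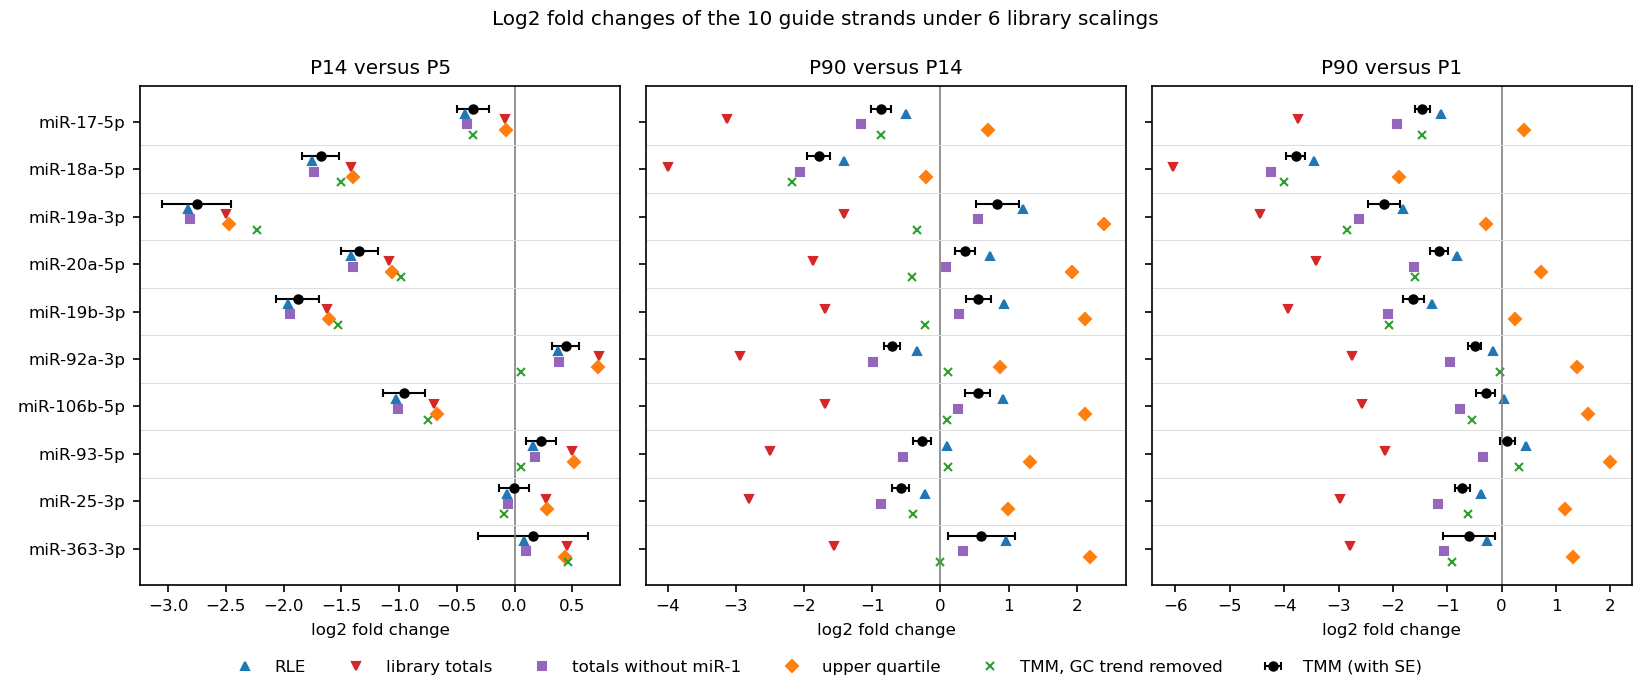
Log2 fold change of the 10 guide strands in 3 comparisons of ages; black circles with SE are the TMM fit and the other symbols are the 4 alternative scalings and the fit with the GC trend removed. The P14 versus P5 values lie close together under all scalings, while against P90 the values spread on both sides of 0, and miR-18a-5p stays below 0 in all 3 panels.

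Ratios between strands in the same library do not depend on that scaling. Each was tested across the 4 ages with an exact permutation test of the between-age sum of squares, over 15400 partitions of the 12 libraries. That sum grows with differences in any direction, and p-values had Benjamini-Hochberg adjustment over 9 ratios. Pairs of ages are described by overlap, since 3 against 3 libraries cannot give an exact p below 0.1. Ratios are on the log2 scale of counts with a pseudocount of 0.5.

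Strands of the miR-17-92 transcript changed unequally. The log2 ratio of miR-18a-5p to miR-17-5p was −0.39, −0.582 and −0.317 at P1, −0.423, −0.543 and −0.576 at P5, −1.835, −2.061 and −1.628 at P14, followed by −2.741, −2.491 and −3.013 at P90 (exact permutation adjusted p = 0.00175). It went down at both later steps with no overlap, a difference of −2.32 from P1 to P90, and of −2.53 with the GC trend removed. The ratio of miR-20a-5p to miR-17-5p was −0.643, −0.744 and −0.581 at P1, −0.568, −0.733 and −0.494 at P5, −1.615, −1.786 and −1.35 at P14, against −0.323, −0.245 and −0.459 at P90 (exact permutation adjusted p = 0.00175). So miR-20a-5p lost ground to its near-identical neighbour at P14 and stood above its newborn ratio at P90, by 0.31, a difference that turned to −0.12 with the GC trend removed.

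The other ratios to miR-17-5p also changed at P14, in 2 directions. For miR-19b-3p the mean log2 ratio was −0.66 ± 0.01 at P1, −0.729 ± 0.081 at P5, −2.269 ± 0.355 at P14 and then −0.837 ± 0.236 at P90 (SD, n = 3 each, exact permutation adjusted p = 0.01). For miR-19a-3p it was −3.218 ± 0.369, −3.206 ± 0.125, −5.625 ± 0.364 and −3.958 ± 0.607 (exact permutation adjusted p = 0.00336). Both dipped at P14 without overlap with P5 or P90, and both overlapped between P1 and P90. For miR-92a-3p the mean log2 ratio rose instead, from 3.653 ± 0.118 and 3.654 ± 0.089 at P1 and P5 to 4.453 ± 0.185 at P14, followed by 4.622 ± 0.22 at P90 (exact permutation adjusted p = 0.00514). With the GC trend removed, the step from P5 to P14 was −1.15 for miR-18a-5p, −1.88 for miR-19a-3p, −0.62 for miR-20a-5p, −1.18 for miR-19b-3p and 0.41 for miR-92a-3p, each in the same direction as without that correction (−1.33, −2.42, −0.98, −1.54 and 0.80).

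Within the Mcm7 introns the 2 partners of miR-106b-5p gained on it at P14. The log2 ratio of miR-93-5p to miR-106b-5p was 2.106, 2.193 and 1.863 at P1, 2.043, 2.054 and 2.122 at P5, 3.176, 3.506 and 3.136 at P14, against 2.729, 2.363 and 2.292 at P90 (exact permutation adjusted p = 0.00175). The ratio of miR-25-3p to miR-106b-5p had means of 2.559 ± 0.366, 2.314 ± 0.106, 3.273 ± 0.213 and 2.142 ± 0.353 (exact permutation adjusted p = 0.00974). Both were highest at P14 with no overlap with P5 or P90. With the GC trend removed the step from P5 to P14 was 0.81 for miR-93-5p and 0.66 for miR-25-3p. The step from P14 to P90 then became 0.02 for miR-93-5p, against −0.81 without the correction, so its ratio no longer peaked at P14. The ratio of miR-25-3p no longer passed (exact permutation adjusted p = 0.0622). The summed counts of the miR-106b-25 strands over those of the miR-17-92 strands had a mean log2 ratio of −0.862 ± 0.038 at P1, −0.63 ± 0.12 at P5, −0.837 ± 0.192 at P14 and then −0.507 ± 0.049 at P90 (exact permutation adjusted p = 0.0245). All 3 P90 libraries lay above all 3 P1 libraries. This ratio did not pass without P90 replicate 2 (adjusted p = 0.0571) or P90 replicate 3 (adjusted p = 0.0596). It was not computed with the GC trend removed. Most of the miR-17-92 sum was miR-92a-3p, with a mean of 1879 of 2345 CPM at P1 and 1331 of 1470 at P90.

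**Figure D4:**
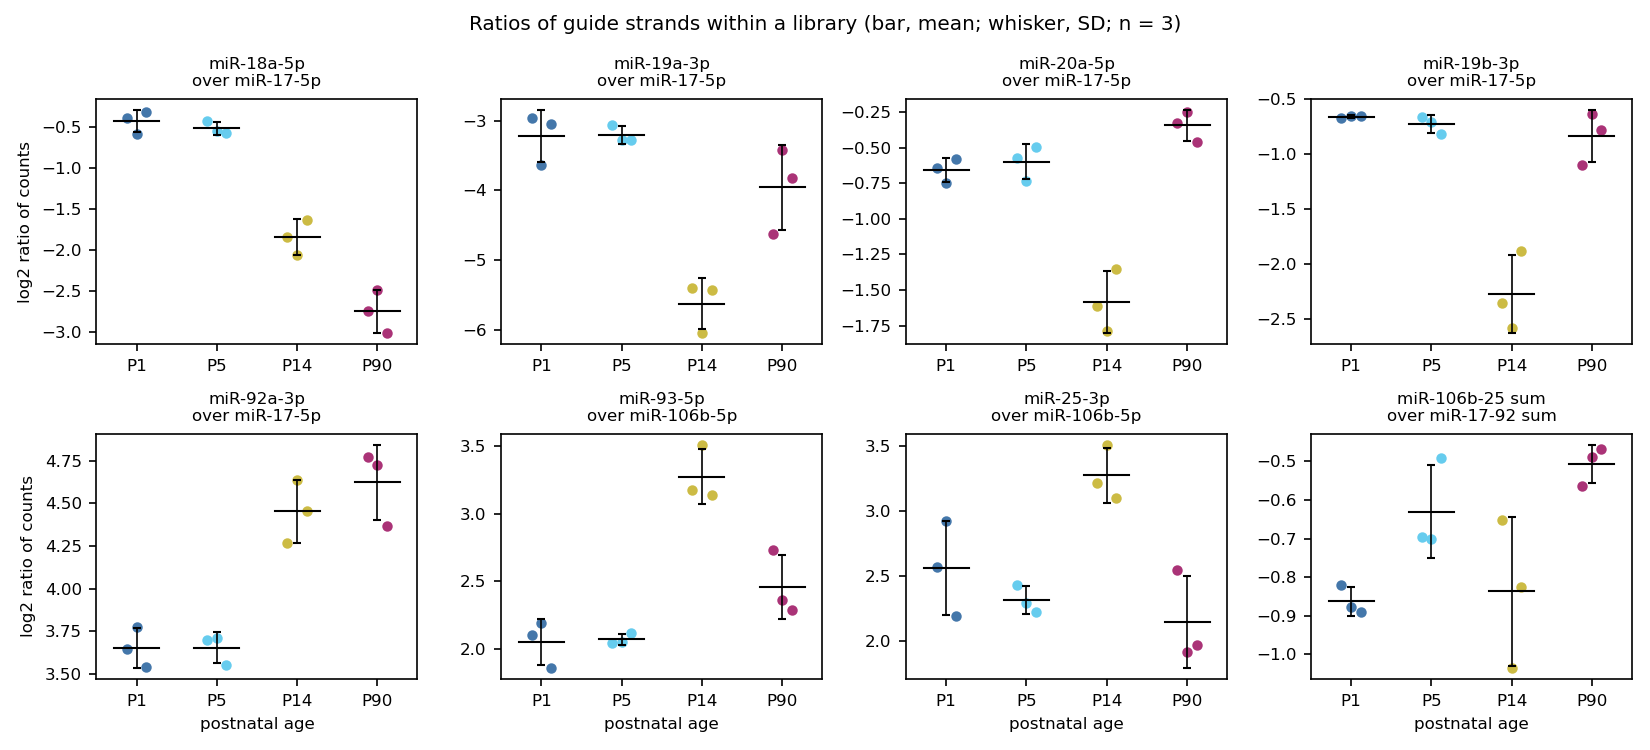
Log2 ratio of counts of 2 strands, or of 2 cluster sums, within a library (vertical axes, ranges differ) by postnatal age; points are libraries, bars the mean and whiskers the SD over 3 libraries. P1 and P5 lie together in most panels, 4 of the 5 ratios to miR-17-5p drop at P14, and the ratio of miR-18a-5p goes on dropping to −2.748 at P90.

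The opposite arms of the hairpins give a further view of the same transcripts. Of 12 partner arms, 8 passed the filter on low counts. From P1 to P90, edgeR with TMM scaling called 7 of the 8 lower and 0 higher, against 41.2% and 25.2% of all miRNAs tested. The median log2 difference was −2.08, beside −0.72 over all miRNAs tested. Upper-quartile factors gave 0 lower and 3 higher (192 and 391 over all miRNAs). Removing the GC trend gave 5 lower and 1 higher (329 and 218 over all miRNAs). From P5 to P14 edgeR with TMM scaling called 1 lower (miR-20a-3p, −1.64 ± 0.34, adjusted p = 0.00109), against 26.3% of all miRNAs tested. It called 1 higher, miR-106b-3p (0.80 on the log2 scale, adjusted p = 0.000366), against 18%. The rise of miR-106b-3p was not called with the GC trend removed (0.14, adjusted p = 0.469). miR-106b-3p had 57.7, 67.3 and 57.3 CPM at P1, 57.3, 54.6 and 61.4 at P5, 91.9, 115 and 95.4 at P14, followed by 48.9, 51.1 and 52.7 at P90. Its P14 libraries lay above those of every other age, while those of miR-106b-5p lay below. The ratio of 5p to 3p counts was 1.98, 1.52 and 2.36 at P1, 1.96, 2.32 and 2.28 at P5, 0.816, 0.46 and 0.711 at P14, against 1.59, 2.05 and 1.97 at P90, so that the 3p arm was the more abundant in all 3 P14 libraries and in no other. The 5p arm has a GC content of 42.9% and the 3p arm of 63.6%. With the GC trend removed, a setting chosen after the data were seen, the ratios at P14 were 1.38, 1.01 and 1.21 and those at P90 were 0.952, 0.927 and 0.976, so the age at which the 3p arm exceeded the 5p arm depended on that correction.

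Arm ratios of the miR-17 and miR-18a hairpins, whose 5p arms are the guide strands, were lower at P14 and P90 than at P1. For miR-17 the ratio of 5p to 3p was 8.82 ± 1.29 at P1, 6.41 ± 0.43 at P5, 4.38 ± 0.885 at P14 and then 5.39 ± 0.542 at P90 (SD, n = 3 each). For miR-18a it was 16.9 ± 1.53 at P1, 17.5 ± 4.38 at P5, 4.59 ± 1.33 at P14, followed by 7.31 ± 2.87 at P90, where the 3p arm had as few as 9 counts in a library. miR-18a-3p, the other product of that hairpin, was not called between P5 and P14 (0.23 ± 0.30 on the log2 scale, edgeR adjusted p = 0.573), in the step where miR-18a-5p fell. On the log2 scale the difference in arm ratio was −1.94 for miR-18a, and −1.48 with the GC trend removed. The arms of miR-17 differed by −0.57 and −0.29 in the same way. The mean ratio of guide to partner was higher at P90 than at P1 in 3 other hairpins, which was not tested, from 27.8 ± 8.61 at P1 to 44.2 ± 13.7 for miR-20a (5p over 3p), from 107 ± 30.9 to 204 ± 47 for miR-93 (5p over 3p) and from 180 ± 32.7 to 711 ± 440 for miR-25 (3p over 5p). At P90 the miR-25 partner had as few as 4 counts and the miR-20a partner as few as 14. The libraries of miR-20a overlapped, at 21.3 to 37.6 at P1 and 29.5 to 56.7 at P90. These 3 ratios were not computed with the GC trend removed. At P14 their means were 32.1 ± 9.96, 131 ± 12.5 and 204 ± 105.

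**Figure D5:**
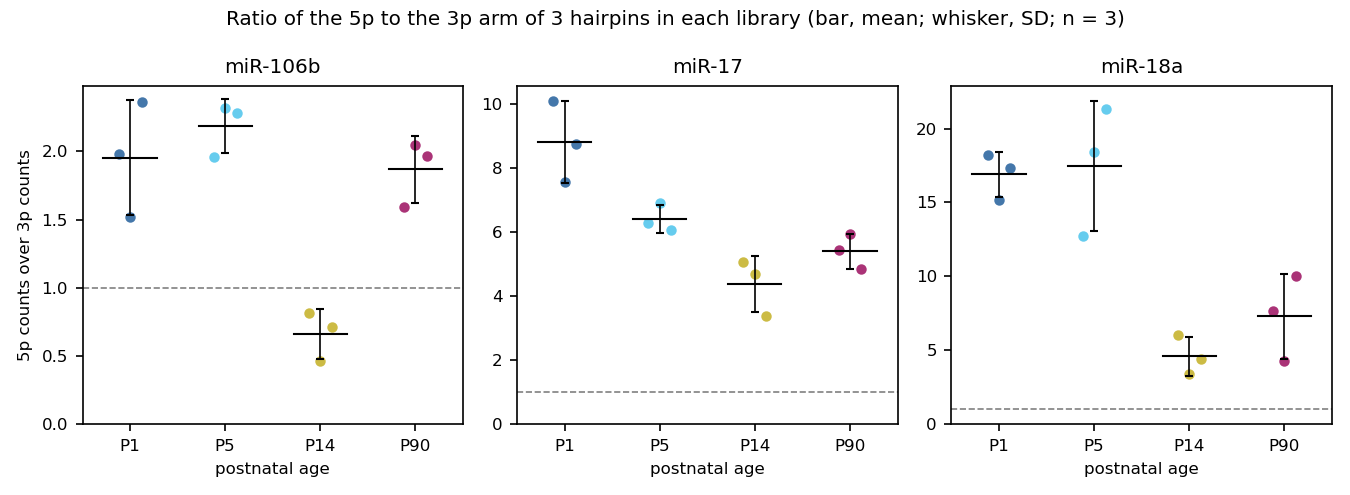
Ratio of 5p to 3p counts (linear axes from 0, dashed line at equal counts) of the miR-106b, miR-17 and miR-18a hairpins by postnatal age; points are libraries, bars the mean and whiskers the SD over 3 libraries. The miR-106b ratio lies below 1 only at P14 (0.46 to 0.816), before any correction for GC content.

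The X cluster was barely expressed. Its other guide strands, miR-106a-5p, miR-18b-5p and miR-20b-5p, summed to between 1.67 and 6.88 CPM at P1 and between 0.416 and 0.833 CPM at P90, and miR-18b-5p was not tested. By edgeR with TMM scaling, miR-106a-5p fell by 2.07 between P1 and P90 (SE 0.77, adjusted p = 0.0267) and miR-20b-5p by 2.92 (SE 0.79, adjusted p = 0.00421), and neither was called under upper-quartile factors (−0.14 and −1.01). miR-106a-5p had 30, 67 and 117 counts at P1 but 10, 3 and 0 counts at P14, at or near the level of 3 counts that a count of 0 allows. Its sequence differs from miR-17-5p only by U10A, and how reads that match both loci were assigned is not given in the sources used here. The ratio of miR-363-3p to miR-106a-5p across the ages (exact permutation adjusted p = 0.0484) rests on these few counts, and it was lost in 11 of the 12 tests with a library left out (adjusted p up to 0.138).

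Another 4 tested miRNAs share a seed with a member, out of 7 listed, and 2 of these 4 belong to the X cluster. miR-32-5p, with the AUUGCAC seed and made from another locus, had 8, 6.69 and 8 CPM at P1, 7.22, 8.61 and 7.77 at P5, 1.1, 0.567 and 1.26 at P14, against 1.72, 3.92 and 3.17 at P90. It fell by 3.02 from P5 to P14 (SE 0.33, edgeR adjusted p = 3.11e-06) and by 2.38 with the GC trend removed. Of the members with that seed, miR-92a-3p, miR-25-3p and miR-363-3p, none was called lower in this step. Of the 4, TMM scaling called 3 lower at P90 than at P1 and 0 higher, against 41.2% and 25.2% of all miRNAs tested. Upper-quartile factors called 0 lower and 1 higher (192 and 391 over all miRNAs).

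The profiles most like the mean log2 profile of the 6 miR-17-92 strands, over 12 libraries and among miRNAs of at least 10 CPM, were those of miR-450b-5p (r = 0.997), miR-301a-3p (r = 0.989), miR-154-3p (r = 0.976), miR-503-5p (r = 0.974) and miR-499-5p (r = 0.974). These correlations describe points that share library scaling and GC trend, and the members' own values enter the mean they are set against. Of the members that passed this level, those of miR-17-92 ranged from 0.955 for miR-18a-5p, 0.938 for miR-20a-5p, 0.935 for miR-19b-3p and 0.888 for miR-17-5p to 0.175 for miR-92a-3p, and those of miR-106b-25 from 0.725 for miR-106b-5p to −0.438 for miR-93-5p. miR-503-5p had a level of 723 ± 57.6 CPM at P1 and 28.7 ± 2.39 at P90, and miR-301a-3p of 39.4 ± 5.99 and 3.7 ± 0.351.

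Markers of other cells in whole muscle moved with age as well. The summed level of 3 erythroid miRNAs (miR-451a, miR-144-3p and miR-144-5p) lay between 270 and 307 CPM at P1, between 313 and 378 at P5, between 153 and 234 at P14 and between 264 and 508 in the adult. By edgeR 3 of 3 were lower at P14 than at P5, against 26.3% of all miRNAs tested. That count was 2 under library totals, under upper-quartile factors or with the GC trend removed. The 5 leukocyte miRNAs summed to between 276 and 487 CPM at P1, between 179 and 190 at P5, between 229 and 239 at P14 and between 387 and 531 in the adult. Of these, 2 were lower and 2 higher at P14 than at P5, against 26.3% and 18% of all miRNAs tested. From P14 to P90, 5 of 5 were higher, against 22.4% of all miRNAs tested (3 higher with the GC trend removed, 3 lower under library totals). The 2 endothelial arms of miR-126a summed to 3353 to 4367 CPM at P1 and 9661 to 12990 at P90, both called higher except under library totals, where both were lower. Of 5 satellite cell and myoblast miRNAs, 2 were lower and 2 higher at P90 than at P1 (5 lower under library totals). Their sum, mostly miR-206-3p, went from 16996 to 19019 CPM at P1 to 1338 to 1759 at P90. Of the 4 muscle miRNAs, 2 were higher and 1 lower at P90 than at P1 (2 and 2 under library totals). Over all miRNAs tested, TMM scaling called 41.2% lower and 25.2% higher between P1 and P90, and library totals called 647 lower and 36 higher. No marker of these lists was at 0 in all libraries of an age, and their part in the members' differences was not tested.

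Promoter windows of the host genes were searched for E2F motifs (TTTCCCGC, TTTCGCGC, TTTGCCGC and TTTGGCGC, either strand) and for the E-box CACGTG bound by MYC, 250 bases before to 50 after each start in RefSeq. A window of Mcm7 at chr5:138171834-138172133, on the minus strand, held TTTCCCGC on the opposite strand 165 bases before the start and TTTCGCGC 16 bases after it, and no E-box. An E2F motif was present in 2.26% of 32851 windows and the E-box in 7.15%. The other Mcm7 window and that of Kis2 held neither, and the Mir17hg window lies inside the hairpin cluster, so it was not read as its promoter. The host transcripts themselves were not measured in these libraries.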

How the data were processed

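Small RNA from quadriceps of C57BL/6J mice was sequenced at 4 ages (n = 3 mice each). The authors kept reads of 10 to 35 nt with cutadapt 1.18, aligned them to GRCm38 with Bowtie2 2.4.1 and counted them with featureCounts 2.0.1 on miRBase 22, and deposited raw counts per mature miRNA. How reads matching several loci were counted is not given in the sources used here. Some rows held the same values in every library, such as miR-24-3p and miR-3074-5p (7454.3 CPM each in P1 replicate 1). Reads can thus have entered more than 1 row. Library totals and shares over all miRNAs were not corrected for this. Library totals were 20363495 to 53126984 counts, with 424 miRNAs at 0 in all libraries. Ages follow the sample titles.

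Counts were filtered (filterByExpr), scaled by TMM and tested over 809 miRNAs in all 12 libraries with the quasi-likelihood test of edgeR 4.0.16 in R 4.3.3, with Benjamini-Hochberg adjustment and a threshold of 0.05. DESeq2 1.42.0, 4 scalings, no filter, GC-trend removal, a replicate block, fits of 2 ages and leaving out each library were alternatives. The SE of a log2 difference was derived from the test, as its absolute value divided by the square root of the quasi-likelihood F. Scripts were tested on simulated data. Ratios used Python 3.11.15. Replicates were not duplicates (chi-square per degree of freedom 155 to 1056). Sequences and promoters are from RefSeq GRCm38.p6, exon and intron positions from GENCODE vM39.

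Named were the 10 members, their partner arms, other X cluster guide strands, miRNAs of the same seed, 5 marker lists and the 5 most alike profiles. The members and lists were chosen with earlier results of these data known. Intervals and floors cover counting error only.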

Additional observations from a re-analysis of the deposited data

How the results depend on the processing

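Scaling moves the values at P90, where miR-1a-3p takes most of the counts, and the GC trend those at P14 and P90. Depth limits miR-363-3p and miR-106a-5p. With 3 mice per age, small differences can be missed.

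Of the counts of members called, P90 versus P14 gave 10 lower and 0 higher under library totals, 0 and 9 under upper-quartile factors, and 0 higher under totals without miR-1a-3p and miR-1b-5p, with the GC trend removed, or with that and the replicate block. Over all miRNAs, 144 were higher there under totals without miR-1a-3p and miR-1b-5p, and 181 with the GC trend removed. P90 versus P1 gave 1 lower and 7 higher under upper-quartile factors. It gave 1 higher under RLE, DESeq2 or GC removal (246, 258 and 218 over all miRNAs). P14 versus P5 gave 2 higher under library totals or upper-quartile factors. It gave 0 higher with no filter, with the GC trend removed, or with that and the replicate block (112, 128 and 120 over all miRNAs). P5 versus P1 gave 1 lower (miR-363-3p) with no filter or the 2 ages only (33 and 48 over all miRNAs).

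Log2 differences changed sign as follows, with the main values in the report. Under library totals, P90 versus P14, miR-19a-3p was at −1.41, miR-20a-5p −1.87, miR-19b-3p −1.69, miR-106b-5p −1.70 and miR-363-3p −1.56, and miR-93-5p was at −2.15 versus P1 (−0.35 under totals without miR-1a-3p and miR-1b-5p). Under upper-quartile factors, P90 versus P14, miR-17-5p was at 0.69, miR-92a-3p 0.87, miR-93-5p 1.31 and miR-25-3p 0.99, and versus P1 miR-17-5p was at 0.42, miR-20a-5p 0.73, miR-19b-3p 0.25, miR-92a-3p 1.39, miR-106b-5p 1.59, miR-25-3p 1.17 and miR-363-3p 1.31. With the GC trend removed, P90 versus P14, miR-19a-3p was at −0.34, miR-20a-5p −0.41, miR-19b-3p −0.22 and miR-92a-3p 0.12, and with the replicate block as well at −0.31, −0.41, −0.22 and 0.12. Apart from the scaling and the GC trend, the cause was not tested.

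Among the ratios, P90 minus P1, miR-20a-5p over miR-17-5p turned to −0.12 and miR-25-3p over miR-106b-5p to −0.0635 with the GC trend removed. miR-363-3p over miR-106a-5p (1.14 in the report) was no longer called with a pseudocount of 5 (0.57), the GC trend removed (0.80) or the replicate block (1.14), and could not be computed with a pseudocount of 0. Leaving out 1 library gave 0.88 to 1.59 for it and 0.34 to 0.38 for the ratio of cluster sums. In the same way the members higher at P90 numbered 0 to 4 versus P14 and 0 to 1 versus P1.

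Same-numbered libraries did not deviate together (correlations −0.17 to 0.11, 1 of 18 pairs over 0.1), so the numbers share only a label. The replicate block left 7 members lower at P90 than at P1 (329 over all miRNAs). At P90 versus P14 it left 4 lower and 4 higher (288 and 172 over all miRNAs), where miR-20a-5p became called (0.37, adjusted p = 0.0478). Between P5 and P14 the block ended the call of miR-17-5p (−0.36, adjusted p = 0.0692, and 0.0573 with the GC trend removed as well). The block alone left 5 lower and 1 higher there (199 and 136 over all miRNAs). With the GC trend removed, an alternative added after the data were seen, the arm ratio differences between P14 and P5 went from −1.76 to −0.90 for miR-106b, from −0.57 to −0.29 for miR-17 and from −1.94 to −1.48 for miR-18a.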
